A study of Mus musculus with 14 samples.

Results

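Genes that make triglyceride and load it onto very-low-density lipoprotein (VLDL) were examined in liver RNA of mice fed a Western diet with or without erythrodiol, a triterpene alcohol of the olive. They were the 10 genes, of 17552 in the deposited gene table, whose symbol was Gpam, Agpat2, Agpat3, Lpin1, Lpin2, Dgat1, Dgat2, Mogat1, Mttp or Tm6sf2. All mice were male animals deficient in Apoe, the gene of apolipoprotein E, so both groups carried that deficiency, on a background given as C57BL/6 in the labels and C57BL/6J in the study's methods. Mice of the 7 control libraries received the Western diet alone, and those of the 7 erythrodiol libraries received it with the compound at 10 mg/kg. The labels give an age of 8 weeks and 8 weeks on the diets. The study's methods give a longer feeding period and describe each library as liver RNA combined from a few mice, so a library was a pool and not a single animal. For genes, 1 expected count per group was deposited, which was the sum over its 7 libraries. No difference between the groups therefore had a replicate check, and no test was made.

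Liver cells build triglyceride mainly by the glycerol-3-phosphate pathway. Glycerol-3-phosphate receives a fatty acid to give lysophosphatidic acid, a further one to give phosphatidic acid, loses its phosphate to give diacylglycerol and is acylated once more. A side route, best known in the intestine, acylates monoacylglycerol. In the endoplasmic reticulum the microsomal triglyceride transfer protein passes lipid to apolipoprotein B while it is being made, and the particle leaves the hepatocyte as VLDL.

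Control libraries held 34856340 to 55244294 clean reads and erythrodiol libraries 47669656 to 48058606. The share mapped to genes ranged from 64.3% to 81.4% and from 73.0% to 76.1%, respectively. Control replicate 3 stood apart with the lowest share, and contributed 9.12% of the control read pairs on genes, against at most 17.3% from another control library. Control replicates 1, 3 and 4 also had the lowest shares mapped to a unique place in the genome, 55.3%, 41.6% and 56.2%. The erythrodiol libraries had 64.0% to 68.0%. Since the gene values were pooled, results without any of these libraries could not be given. Expected counts over all genes added up to 122889032 in control and 124686047 in erythrodiol mice. Apoe was at 60.6 and 52.7 counts per kilobase and 1000000 counts, respectively, against 6634 and 7314 for Apoa1, the main protein of high-density lipoprotein. Albumin, a protein of hepatocytes, took 8.06% and 7.75% of the counts.

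Between the groups, the lipin genes Lpin1 and Lpin2 were higher with erythrodiol by 1.61-fold and 1.54-fold, and the VLDL genes Mttp and Tm6sf2 by 1.28-fold and 1.27-fold. Mogat1 was lower, at 0.535 of its control value, and the acyltransferases Gpam, Agpat2, Agpat3, Dgat1 and Dgat2 lay between 0.991-fold and 1.20-fold. Ratios are those of erythrodiol to control after each group was divided by its total count. Intervals are 95% exact intervals of the counts and cover counting error only, since reads without molecular identifiers are not independent molecules and the spread between libraries does not enter. Because these were bulk samples, fewer cells of a type and less RNA per cell cannot be told apart.

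Genes were counted as higher or lower past a log2 ratio of 0.32 in either direction, which is 25% above or 20% below control. At this limit 4 of the 10 genes were higher, where 24.4% of 13291 genes were, and 1 was lower, where 8.89% were. These 13291 genes, against which the 10 are read throughout, had 100 counts or more when both groups were added. At 1.5-fold 2 of the 10 were higher, against 2.55% of genes, and 1 was lower, against 3.14%. The median log2 ratio of the 10 genes was 0.25 and that of the 13291 genes 0.16. The log2 ratio was above 0 for 8 of the 10 genes and for 71.2% of all genes. The 100 genes of highest count held 46.4% of the control total and 42.2% of the erythrodiol total. When ratios were centred on the median of all genes, a shift of -0.16, Lpin1 and Lpin2 stayed past the limit at 0.53 and 0.46, while Mttp and Tm6sf2 lay within it at 0.19 and 0.18. Among all genes past the limit, 73.3% were higher with the column totals and 27.6% when centred.

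By level per length, which is the scale on which genes can be set against each other, Dgat2 stood first, with 189.9 counts per kilobase and 1000000 counts in control and 223 in erythrodiol mice. Agpat2 followed with 120.2 and 136, then Mttp with 63.6 and 81.1, and Agpat3 with 59.6 and 71.3. The middle of the order was Lpin2 with 37.1 and 57.1, Gpam with 30.5 and 35.6, and Tm6sf2 with 14.5 and 18.4. Last came Lpin1 with 9.25 and 14.9, Dgat1 with 8.52 and 8.44, and Mogat1 with 1.93 and 1.03. The order was the same in both groups, although the nearest neighbours in control mice, Dgat1 and Lpin1, or Agpat3 and Mttp, were close and the spread over libraries behind each level was not analysed here. The 10 levels summed to 535 and 648, of which Dgat2 gave 35.5% and 34.5%, respectively.

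**Figure D1:**
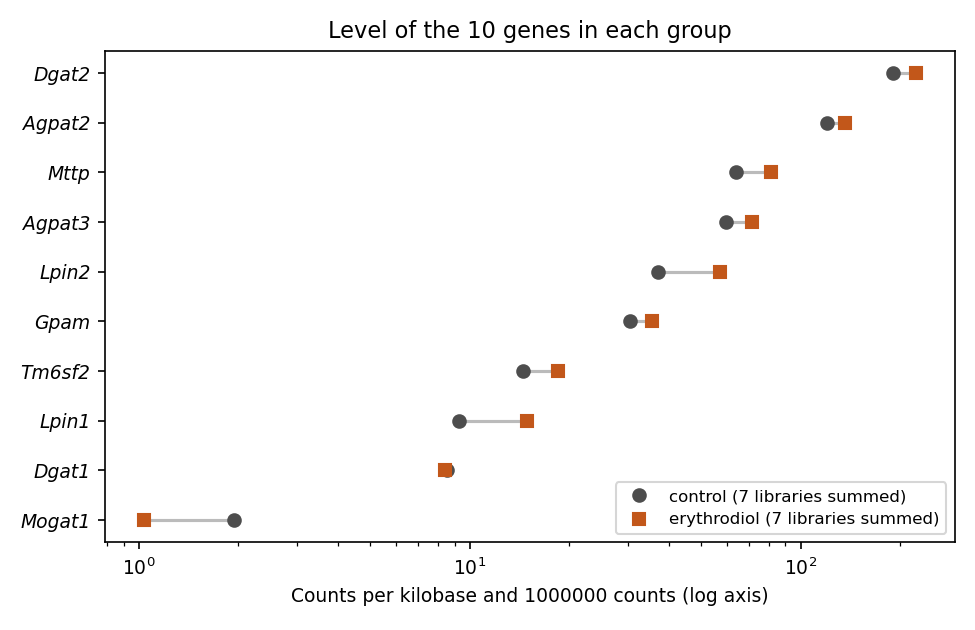
Level of each of the 10 genes as counts per kilobase and 1000000 counts on a log axis, with a circle for the control and a square for the erythrodiol group, each the sum of 7 libraries and without replicate error. The widest gaps to the right are those of Lpin1 and Lpin2, Mogat1 has a gap to the left, and the markers of Dgat1 overlap.

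Gpam encodes the mitochondrial enzyme that adds the first fatty acid to glycerol-3-phosphate, and lies on chromosome 19 from 55067635 to 55127319 (GRCm38). It had 22764 counts in control and 26991 in erythrodiol mice, a log2 ratio of 0.22 (95% interval 0.20 to 0.25). Genes of its length were higher still, so that Gpam was at -0.08 relative to the median of the 500 genes nearest in length. Gpat4, the enzyme of the same step in the endoplasmic reticulum, had a like level, 30.0 in control and 34.2 with erythrodiol, and its log2 ratio differed from that of Gpam by 0.03 (-0.01 to 0.08). Together with Gpat2 and Gpat3 these genes cover the first acylation, and Gpam gave 46.5% of their summed level in control and 47.3% with erythrodiol.

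Agpat2 and Agpat3 encode enzymes that acylate lysophosphatidic acid to phosphatidic acid. Agpat2 (chromosome 2 from 26593057 to 26604417) had 20668 and 23757 counts, a log2 ratio of 0.18 (0.15 to 0.21). It is a short gene, and 75.2% of the 500 genes nearest in length had a lower ratio. Agpat3 (chromosome 10 from 78269174 to 78352497) had 28807 and 34947 counts, a log2 ratio of 0.26 (0.24 to 0.28), and lay within 0.02 of the median of genes of its length. The pair held most of the summed level of the 5 AGPAT genes, 64.0% and 62.8% by Agpat2 and 31.7% and 32.9% by Agpat3. In the annotation, 64 of the 2130 exon bases of Agpat2 are shared with the endothelial gene Egfl7 on the other strand, which had 1451 and 1432 counts. No step that keeps the strand of the RNA is named for these libraries, so reads there cannot be told apart.

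Lpin1 and Lpin2 encode lipins, phosphatases that turn phosphatidic acid into diacylglycerol. Lipin 1 is also known as a coactivator of fatty acid oxidation genes in the nucleus. Lpin1 (chromosome 12 from 16535669 to 16653903) had 6235 counts in control and 10211 in erythrodiol mice, a log2 ratio of 0.69 (0.65 to 0.74). Lpin2 (chromosome 17 from 71183532 to 71249818), the more abundant of the pair in these livers, had 25279 and 39451 counts, a log2 ratio of 0.62 (0.60 to 0.64). Of the 13291 genes, 98.8% had a lower ratio than Lpin1 and 98.0% a lower one than Lpin2. Their ratios differed from each other by 0.07 (0.02 to 0.12), and Lpin1 was at 0.249 and 0.262 of the level of Lpin2. Lpin3, the remaining lipin, was at a low level and had 596 and 730 counts, a log2 ratio of 0.27 (0.11 to 0.43). Lpin2 made up 77.6% of the summed lipin level in control and 77.4% in erythrodiol mice, and that sum was 47.8 and 73.8 counts per kilobase and 1000000 counts.

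Gpam is close to both lipin genes in length, 6076 bases against 5484 for Lpin1 and 5541 for Lpin2. The log2 ratio of Lpin1 exceeded that of Gpam by 0.47 (0.41 to 0.52), and that of Lpin2 by 0.40 (0.36 to 0.43). At like gene length, Lpin1 and Lpin2 thus each had a higher ratio than Gpam. The bases before the first RefSeq start of Lpin2 are shown because it was the gene whose window held 1 of the 3 motifs searched. They cover chr17:71183282-71183531 on the plus strand of GRCm38 and end at the base before the start, with the E-box in capitals:
Lpin2: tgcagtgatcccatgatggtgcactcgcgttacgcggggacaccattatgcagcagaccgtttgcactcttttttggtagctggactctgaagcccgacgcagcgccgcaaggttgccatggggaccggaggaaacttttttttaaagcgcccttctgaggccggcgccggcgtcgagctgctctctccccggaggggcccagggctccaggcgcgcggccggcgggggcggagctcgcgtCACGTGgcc
The E-box lay 9 to 4 bases before the start, and 65.2% of these bases were G or C. RefSeq windows of 250 bases before to 50 after a start were at hand for 7 of the 10 genes, as 10 windows. On both strands CACGTG, the E-box, occurred in 1 of the 10 and in 7.15% of all 32851 windows. TCACNCCAC, the core of a sterol regulatory element, occurred in 0 of the 10 and in 1.24% of all windows. CAAAGTCCA, the core of an HNF4 site, occurred in 0 of the 10 and in 0.475% of all. The window of Lpin1 had none of these motifs, and 54.8% of the 250 bases before its start were G or C. Those bases, chr12:16610967-16611216 on the minus strand, lie inside the span of Lpin1 given above. The end of that span at 16653903, where the gene begins, was not searched. The motifs do not overlap each other, and a match describes letters, not a site in use. Which starts were used in these livers was not analysed, and the assembled Lpin2 transcript described below begins at 71214441.

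Dgat1 and Dgat2 encode the unrelated enzymes that add the last fatty acid to diacylglycerol. Dgat2 (chromosome 7 from 99153663 to 99182713) had 52534 and 62718 counts in control and erythrodiol mice, a log2 ratio of 0.23 (0.22 to 0.25). Dgat1 (chromosome 15 from 76502012 to 76512021) had 1809 and 1819 counts, a log2 ratio of -0.01 (-0.11 to 0.08) that included 0 within counting error. Its sign also turned with the scaling, to 0.12 when ratios were scaled by the reference genes Ppib and Tbp. By level, Dgat2 was 22.3 times Dgat1 in control and 26.5 times with erythrodiol, and their log2 ratios differed by 0.25 (0.15 to 0.34). Dgat2 thus held 95.7% and 96.4% of the summed level of both genes. Relative to genes of like length, Dgat2 was at 0.12 and Dgat1 at -0.09.

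Mogat1 encodes a monoacylglycerol acyltransferase of the side route, which is scarce in normal liver and more abundant in fatty liver. Mogat1 (chromosome 1 from 78511060 to 78606964) had 271 counts in control and 147 in erythrodiol mice, the fewest of the 10 genes. Its log2 ratio was -0.90 (-1.20 to -0.61), a fold of 0.535 (0.434 to 0.656), and 0.782% of the 13291 genes had a lower ratio. Short genes were lower in general, but Mogat1 was at -0.87 relative to genes of like length, of which 2.4% had a lower ratio. The ratio of Mogat1 was below that of Agpat2, a gene of similar length, by a log2 difference of -1.08 (-1.37 to -0.79). Mogat2, the intestinal relative, had 13 and 24 counts, under the minimum of 100. The 250 bases before the start of Mogat1 are given for contrast with the GC-rich start of Lpin2, in lower case throughout as they held no motif, from chr1:78510810-78511059 on the plus strand of GRCm38:
Mogat1: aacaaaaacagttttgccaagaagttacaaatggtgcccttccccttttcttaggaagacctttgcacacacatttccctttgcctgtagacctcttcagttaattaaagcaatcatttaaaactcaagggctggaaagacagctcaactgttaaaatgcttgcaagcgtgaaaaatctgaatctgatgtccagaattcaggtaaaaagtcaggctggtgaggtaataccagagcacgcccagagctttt
Of these bases 41.2% were G or C, where the median over all windows was 52.4% and 14.1% of windows had less. The contrast holds for the start of Lpin2 shown above, and its other starts were at 83.2% and 44.8%. Agpat2, a gene within the limit, was at 69.2%.

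Markers of Kupffer cells, the resident macrophages of the liver, were also lower with erythrodiol. All 5 of 5 (Clec4f, Cd5l, Adgre1, Vsig4 and Timd4) were past the limit on the low side, where 8.89% of all genes were. Their log2 ratios were -0.75 to -0.48. Their summed level was 818 and 510.0 per 1000000 counts, a log2 ratio of -0.68, and none was at 0. Lower values were not particular to this cell type, since 2 of 4 bile duct markers were past the limit too, Krt19 at -0.89 and Epcam at -0.55. The part of either cell type in the value of Mogat1 was not tested. In the annotation 200 of the 1558 exon bases of Mogat1, 12.8%, are shared with BC035947 on the other strand, and reads from these bases cannot be told apart.

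Mttp encodes the large subunit of the microsomal triglyceride transfer protein, and Tm6sf2 a membrane protein of the endoplasmic reticulum needed for full lipidation of VLDL. Mttp (chromosome 3 from 138089855 to 138143418) had 30973 and 40072 counts, a log2 ratio of 0.35 (0.33 to 0.37). Apob, which encodes the protein that receives this lipid, had 682836 and 884465 counts and the same log2 ratio, 0.35. Apob stood at 6.28 times the level of Mttp in both groups, and the difference of their log2 ratios was 0.00 (-0.02 to 0.02), a pair chosen after its values were seen. Apob is a very long gene, and relative to genes of like length it was at -0.00. P4hb, the small subunit of the transfer protein and a general disulfide isomerase, was at 0.26, below Mttp by a log2 difference of -0.09 (-0.11 to -0.07). Agpat3, which is nearly equal in length to Mttp, was lower in ratio than Mttp by 0.09 (0.06 to 0.12). Mttp itself was 0.11 above the median of genes of like length, of which 73.6% had a lower ratio. Of its 6206 exon bases, 457 are shared with Trmt10a on the other strand, which had 413 and 551 counts, few beside those of Mttp.

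Tm6sf2 (chromosome 8 from 70072924 to 70080066) had 2582 and 3323 counts, a log2 ratio of 0.34 (0.27 to 0.42). Unlike Mttp it is a short gene, and 91.0% of the 500 genes nearest in length had a lower ratio. Relative to their median it was at 0.31, just inside the limit of 0.32, and at 0.34 when the 200 nearest were used. Agpat2, a gene of like length, was below Tm6sf2 by 0.16 (0.08 to 0.24), and Dgat1 by 0.36 (0.24 to 0.48).

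Over all genes the log2 ratio went with gene length. The median was -0.18 in the shortest 10% of genes, of 333 to 1211 bases, and 0.33 in the longest 10%, of 6116 to 26655 bases. The 10 genes ran from 1141 bases for Mogat1 to 6076 for Gpam, just short of the longest class, and each was set beside the 500 genes nearest in length. On this scale Lpin1 was at 0.43 and Lpin2 at 0.35, and these 2 of the 10 genes were past the limit on the high side, where 5.93% of all genes were. With genes near in both length and count as the reference, Lpin1 was at 0.36 and Lpin2 at 0.30, inside the limit. On the low side only Mogat1 was past the limit among the 10, where 13.6% of all genes were. The median of the 10 genes was 0.12, and 7 of them lay above the median of their length. Gpam, at -0.08, and Dgat1, at -0.09, lay below it together with Mogat1, and Agpat3 crossed to -0.00 when count was matched too.

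**Figure D2:**
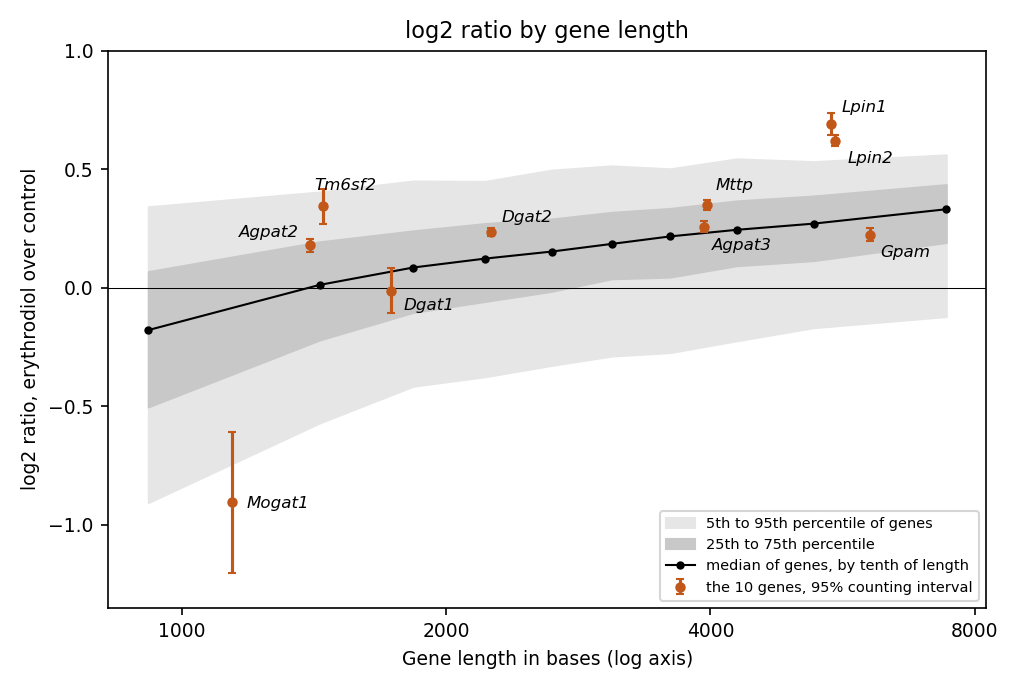
The log2 ratio of erythrodiol over control (vertical axis) by gene length in bases (log axis), with the line joining the medians of 10 equal classes of the 13291 genes by length, bands for their 25th to 75th and 5th to 95th percentiles, and points for the 10 genes with 95% counting intervals. The line climbs from -0.18 to 0.33, Lpin1 and Lpin2 lie above the outer band, and Mogat1 lies below it.

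**Figure D3:**
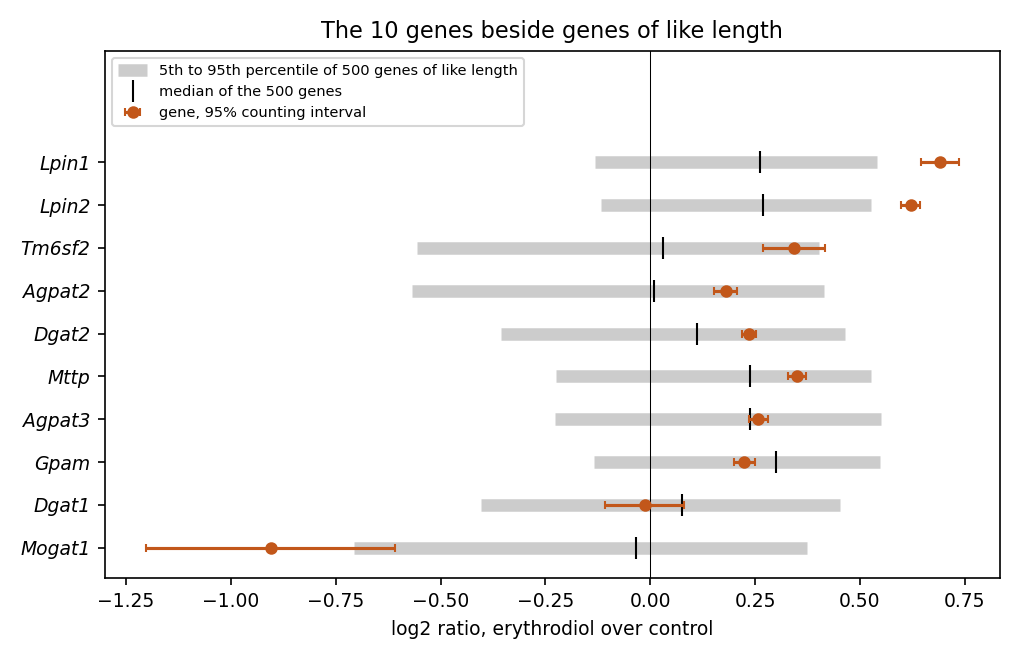
The log2 ratio of each of the 10 genes (point, with its 95% counting interval) beside the 500 genes nearest in length, shown by their median (tick) and their 5th to 95th percentile (grey bar). Lpin1 and Lpin2 lie to the right of their bars and Mogat1 to the left, and the other 7 points lie within theirs.

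The wider pathway was covered by 43 other genes in 4 lists, of which 42 had the 100 counts required. Past the limit of 0.32, 13 were higher and 4 lower, that is 31.0% and 9.52% of them, where 24.4% and 8.89% of all genes were. Their median log2 ratio was 0.19. Relative to genes of like length 3 were higher and 6 lower, where 5.93% and 13.6% of all genes were, with a median of 0.04.

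Of the 8 close relatives of the member enzymes, 7 had enough counts, with a median of 0.15. Of these 1 was higher, 14.3%, and 0 lower, where 24.4% and 8.89% of all genes were. The higher gene was Agpat1, with 1332 and 1764 counts and a log2 ratio of 0.38 (0.28 to 0.49). Gpat4 had the most raw counts, 14824 and 17163, at 0.19 (0.16 to 0.22). Relative to genes of like length 0 of these relatives were higher and 1 lower, Agpat4 at -0.40 with 171 and 143 counts. Of 11 genes that supply fatty acids and glycerol-3-phosphate, 2 were higher and 2 lower, 18.2% each, and the median was 0.18. Acsl1 and Acsl3, which activate long-chain fatty acids, were higher at 0.43 (0.42 to 0.44) and 0.34 (0.26 to 0.42), and at 0.20 and 0.11 relative to genes of like length, where 0 genes of the list were higher past the limit. On that scale 2 genes of the list were lower, Slc27a5 at -0.34 and Cd36, given below, where 13.6% of all genes were. Fabp1, the fatty acid binding protein of hepatocytes, was lower at -0.40 and had the most raw counts, 501950 and 387017. It is a short gene, and relative to genes of like length it was at -0.06. Slc27a2, a fatty acid carrier and the next by raw counts, with 136146 and 156600, was at 0.18.

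Cd36, a fatty acid receptor that macrophages make as well as hepatocytes, had 21278 and 13007 counts and a log2 ratio of -0.73 (-0.76 to -0.70). It was at -0.89 relative to genes of like length, of which 0.4% had a lower ratio. The Kupffer cell markers above, at -0.68 in sum, were lower too, and their part in the value of Cd36 was not tested.

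Of 14 genes of VLDL assembly and export, 4 were higher and 2 lower, 28.6% and 14.3%, where 24.4% and 8.89% of all genes were. The median of the list was 0.14, against 0.16 over all genes. Mia3 and Mia2, which help large cargo out of the endoplasmic reticulum, were higher at 0.58 (0.56 to 0.61) and 0.56 (0.50 to 0.62). Fitm2, a protein of lipid droplet formation, was at 0.34 (0.26 to 0.41), and Apob at 0.35. Sar1b, the GTPase that builds the coat of the vesicles leaving the endoplasmic reticulum, was lower at -0.55 (-0.58 to -0.53). Pla2g12b, a protein of the endoplasmic reticulum needed for normal VLDL secretion, was at -0.59 (-0.64 to -0.53). P4hb had the most raw counts of the list after Apob, 126108 and 153354. Vmp1, at 0.800-fold, lay at the limit without passing it. Relative to genes of like length Mia2 was at 0.50, Apoc3 at 0.36, Vmp1 at -0.47, Sar1b at -0.54 and Pla2g12b at -0.53. Mia3, at 0.29, and Fitm2, at 0.27, lay inside the limit on that scale.

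Of 10 regulators, transcription factors and coactivators that act on these genes, 6 were higher and 0 lower, where 24.4% and 8.89% of all genes were. The median of the list was 0.38. Mlxipl, which encodes the carbohydrate-responsive factor ChREBP, had 39373 and 60749 counts and a log2 ratio of 0.60 (0.59 to 0.62). Ppara, the receptor that drives fatty acid oxidation genes, was at 0.51, and its coactivators Ppargc1a and Ppargc1b were at 0.48 and 0.42. Foxo1, a factor restrained by insulin, was at 0.52, and Foxa2, a factor of liver identity, at 0.33. Hnf4a, with the most raw counts of the list, 62610 and 73612, was at 0.21. Relative to genes of like length only Mlxipl of this list passed the limit, at 0.39, the median was 0.13, and 7 of the 10 lay above the median of their length.

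**Figure D4:**
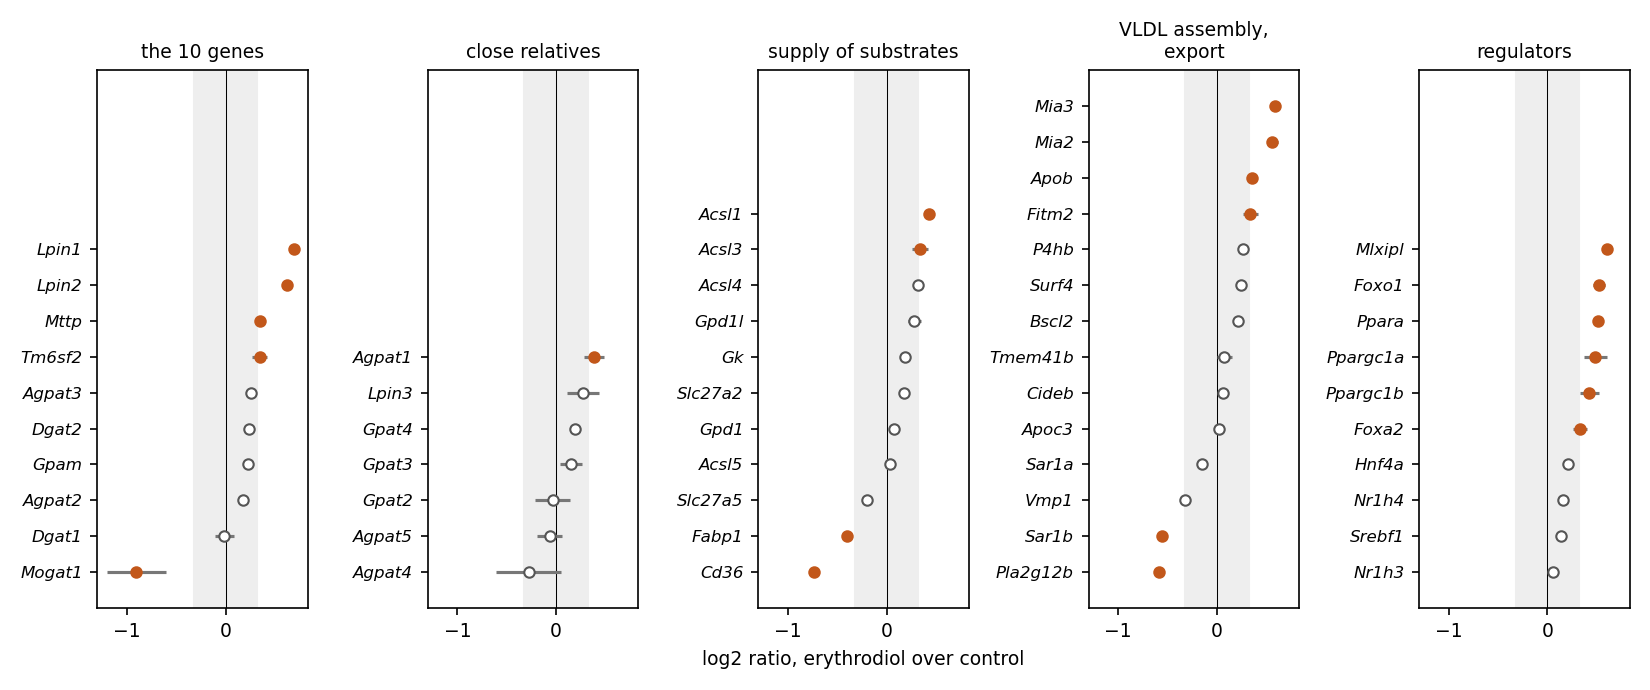
The log2 ratio of erythrodiol over control for the 10 genes and for the 42 genes of the 4 pathway lists, each with its 95% counting interval as a line, which is mostly narrower than the point. Filled points are past a log2 ratio of 0.32 in either direction and open points lie within the grey band. All 10 regulators lie above 0 with this scaling by column totals, and 7 of them above the median of genes of like length, while the other lists hold genes on both sides.

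The deposited annotation places 13 genes of the table under triglyceride biosynthetic process, a grouping taken up after values had been seen. Of these 6 are among the 10 genes. The other 7 are Gpat2, Gpat3, Gpat4, Lpin3, Lpl, Mogat2 and Pnpla3. In the 6 of them with enough counts 0 passed the limit in either direction, where 24.4% of all genes were higher and 8.89% lower. Their log2 ratios were -0.03 to 0.27. Lpl, a lipase of circulating triglyceride, was at 0.13 (0.10 to 0.16), and Pnpla3, a lipid droplet protein, had 357 and 371 counts.

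Markers of other cells that liver tissue could hold were read in the same way. Of 6 hepatocyte markers 1 was past the limit, Cps1 at 0.36, 5 were above 0 and the median was 0.16. Albumin, the bulk of their summed level, was at -0.06, and the log2 ratio of the sum was 0.02. Among 4 markers of sinusoidal endothelial cells and 5 of stellate cells 0 were past the limit with column totals. Relative to genes of like length, none of these markers lay above the median of its length, where 5 of the 6 hepatocyte markers did. On that scale 1 stellate marker, Lrat, was past the limit at -0.42. Of 4 bile duct markers 2 were lower, Krt19 at -0.89 and Epcam at -0.55, and the summed level was 14.7 and 12.0 per 1000000 counts. Relative to genes of like length all 4 were past the limit on the low side, where 13.6% of all genes were. Of 4 adipocyte markers, Cidec alone reached 100 counts, with 1169 and 919, and was at -0.37. Adipoq had 28 and 25 counts, Plin1 5 and 7, and Lep 2 and 1. Of 3 enterocyte markers, Fabp2 alone reached 100 counts, with 12791 and 7834, and was at -0.73. Vil1 had 43 and 31 counts, and Lct had 2 in control and 0 with erythrodiol. Cidec and Fabp2 thus stood far above the other markers of their lists, and which cells made their RNA was not tested. The part of these cells in the values of the 10 genes was not tested.

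Transcripts that the authors assembled, pooled over the libraries, and that were predicted to be coding included 12 for 5 of the 10 genes, where 28.5% of all genes in the table and 35.8% of the 13291 had any. Lpin1 had 4, Mogat1 and Mttp 3 each, and Dgat1 and Lpin2 1 each. At least 1 intron absent from the GENCODE annotation was found in 11 of the 12. Of the Lpin1 transcripts 3 ran from 16535669 to 16589823 on chromosome 12 with 21 or 22 exons, and 1 ended at 16547953 with 7. The Lpin2 transcript had 18 exons from 71214441 to 71249818 on chromosome 17. Abundances of single transcripts by group were not analysed here, so the ratios of these genes are those of all their transcripts together.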

How the data were processed

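Liver poly-A RNA of 7 control and 7 erythrodiol pools was sequenced in paired-end mode. Per the labels and the submitters' processing notes, the authors used HISAT, StringTie, Cufflinks, GATK, Bowtie2 and RSEM, versions and build not given in the sources used here, and gene coordinates of the files are those of GRCm38. The authors deposited 1 expected count per gene and group, the sum over 7 libraries, not normalized, with gene length. Counts of clean reads and of detected genes and transcripts, and mapping rates in percent, were deposited for single libraries. The deposited log2 ratio, p-value and q-value columns of the authors' own comparison were not used. No other column of values per sample was left out (0).

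The design had allowed for counts per library. With group sums only, no test across genes was made and expected counts were used as deposited. Log2 ratios were scaled by column totals, with exact conditional binomial intervals at 95%. Intervals of a difference between log2 ratios of 2 genes came from the normal approximation to the counts. No such pair of genes was named in the design. Genes needed 100 counts over both groups and a count above 0 in both. The reference by length was the median of the 500 genes nearest in log2 length. Groups came from the labels. The 10 genes and all lists were chosen with earlier results of these data known. Named were the 10 genes, in 4 pathway lists each gene past the limit of a log2 ratio of 0.32 and the 2 of highest count, and Ppib and Tbp, while others were named after their values were seen. Promoter windows and gene spans came from RefSeq (GRCm38.p6), and shared exons and introns from GENCODE. Alternatives were other scalings, fold limits of 1.1, 1.5 and 2, a pseudocount of 1, 200 or 1000 genes nearest in length, minimums of 10 counts or none, a reference matched in count, and each gene left out in turn. The 9 genes with at least 1000 counts, and genes past the limit on both scales, were added after seeing the data. The computation was tested on simulated data. Ratios were computed in Python 3.11.15 with numpy 2.4.6 and pandas 2.3.3, intervals with scipy 1.17.1, and plots with matplotlib 3.10.9. A gene of the planned lists is not reported here. Called variants, splicing events and a short example table were not used.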

Additional observations from a re-analysis of the deposited data

Results flagged for a closer look

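In all, 7 measures per library were examined within the 7 control and the 7 erythrodiol libraries. By its gap to the nearest library, 1 library was marked as far from its group. Control replicate 3 had 76.7% of its clean reads mapped to the genome, where the nearest control library had 92.0%, and 64.3% mapped to genes, where the nearest had 74.4%. These 2 values came from the same library, out of 14 examinations of a group, and chance gives about 1 in 20 groups such a gap. This library supplied 9.12% of the control read pairs on genes. Its share of the counts of single genes was not analysed here. Several low libraries can hide each other from such a gap. Control replicates 1, 3 and 4 had 26483, 30081 and 28632 detected transcripts, where the erythrodiol libraries had 32370 to 33651. Of their clean reads, 55.3%, 41.6% and 56.2% mapped to a unique place in the genome, against 64.0% to 68.0% in erythrodiol libraries. The part of these libraries in the ratios of genes was not tested.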

How the results depend on the processing

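Lpin1, Lpin2, Mttp, Tm6sf2, Agpat2 and Dgat2 kept a log2 ratio above 0 and Mogat1 one below 0 in all 11 settings, of 0.36 to 0.83 for Lpin1, 0.30 to 0.76 for Lpin2, 0.09 to 0.49 for Mttp, 0.18 to 0.48 for Tm6sf2 and -1.07 to -0.77 for Mogat1. The sign changed for 3 genes, Gpam (-0.12 to 0.36), Agpat3 (-0.00 to 0.39) and Dgat1 (-0.17 to 0.12). The number of the 10 genes that were higher, 4 at a log2 limit of 0.32, was 8 at 1.1-fold, 2 at 1.5-fold, 0 at 2-fold, and 2 when centred on the median of all genes, relative to genes of like length, or on both scales. The 1 lower gene became 0 at 2-fold. Of the 42 pathway genes, the 13 higher became 1 at 1.5-fold, 3 relative to like length and 5 when centred, and the 4 lower became 2 at 1.5-fold and 7 when centred. Of all genes 2.55% were higher and 3.14% lower at 1.5-fold, and 5.93% higher and 13.6% lower relative to like length. The median of all genes, 0.16, was itself past 1.1-fold with column totals. Shares of all genes at 1.1-fold, at 2-fold and when centred are not given here. The median of the 10 genes, 0.25, was 0.12 relative to like length, 0.084 when centred and 0.38 when scaled by Ppib and Tbp, whose own log2 ratios were -0.59 and 0.31. Each of these shifts follows from the construction of the setting. The split of all genes past that limit was 73.3% higher with column totals, 30.4% relative to like length and 27.6% when centred. Of 90 alternatives for log2 ratios of single genes 58 moved the value by no more than its counting interval and 32 by more, and 0 turned the sign of a value past the limit. Of these, 5 brought a gene past the limit, namely Gpam, Agpat3 and Dgat2 (0.36, 0.39 and 0.37) when scaled by Ppib and Tbp, and Tm6sf2 relative to the 200 nearest in length or with no minimum of counts (0.34 and 0.32). Another 5 took a gene inside it, namely Mttp and Tm6sf2 when centred (0.19 and 0.18) or with totals without the 100 highest genes (0.24 for both), and Lpin2 relative to genes near in length and count (0.30). Without the length correction 7 of the 10 genes changed place in the order of levels. No paired analysis was possible because each gene had 1 pooled value per group. For the same reason leaving out a library, or naming the spread between libraries, was not possible for genes, and the counts of Mogat1, 271 and 147, set the widest interval among the 10.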
